A study of Mus musculus and Homo sapiens with 22 samples.

Results

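The sites described here are the N6-methyladenosine (m6A) sites of mouse heart that lie in no annotated gene. A site of the list made from 1 µg of heart RNA was taken when its position overlapped no GENCODE gene body on its own strand. The GENCODE release used here is older than the authors', and some of these sites may lie in genes that the later release holds. The rule gave 986 of 46421 sites, or 2.12% (Wilson 95% interval 2.00 to 2.26%). All positions are 1-based on the mouse genome build GRCm38. The series mapped m6A with miCLIP2: RNA is bound by an m6A antibody, UV light links both covalently, and cDNA synthesis ends at the linked base. A trained model, m6Aboost, then kept the peaks at an A that it scored as m6A. Mouse heart was used in 4 libraries, 1 for each amount of input RNA, to ask how little RNA the method needs. The inputs are titled 1, 50, 100 and 300 µg for the 4 libraries, whereas the names of the lists and the study's methods give the last 3 in ng, and ng is used here. The heart RNA was bought as poly(A)+ RNA of whole tissue, was not treated, and came with no stated strain, age, sex or number of animals. Because there was 1 library for each input, no value below has a replicate error, and no test between libraries was made. The intervals given for shares cover counting error only, and they are too narrow, since neighbouring sites share transcripts and all sites share a library. The read depth behind a site is unknown here, because the lists carry no read counts.

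m6A is placed on mRNA in the nucleus by the METTL3-METTL14 methyltransferase, which prefers an A in the sequence DRACH (D is A, G or T, R is A or G, H is A, C or T). In mRNA the mark is known to be frequent around stop codons and in 3′ UTRs. The end of a 3′ UTR is set by cleavage and polyadenylation, which is guided by a hexamer such as AATAAA upstream of the cleavage site, and many genes use several such ends. A site beyond an annotated gene end can therefore belong to a longer form of that gene's transcript, to another transcript that the annotation lacks, or to neither. Antibodies to m6A also recognise m6Am, a related base at the first position of capped transcripts.

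The sequences below show a site with the highest rank in most of the largest groups of such sites, with 10 bases on each side, read from the GRCm38.p6 genome 5′ to 3′ on the strand of the site. Capitals mark the 5 bases centred on the A called as m6A. The name gives the nearest gene end upstream on the same strand, or the gene that starts downstream where so written. Of the 12 largest groups, 4 more are described further on without sequence.
Nt5c1a, chr4:123218019-123218039 (+): gggcctcaGGACActttccat
Mhrt, chr14:54974535-54974555 (+): ctggcaatGGACCattgtgga
Gm48840, chr9:45016878-45016898 (-): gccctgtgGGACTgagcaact
before Actc1, chr2:114058346-114058366 (-): ccttttaaGGACTtaaaaagg
D830005E20Rik, chr10:33201388-33201408 (-): gcttccagGGACTaaaccaca
Gm44402, chr6:51330778-51330798 (+): acaacaagAAACTgtacacga
Sapcd1, chr17:34997937-34997957 (-): aacaggatGGACTgtgtaaac
All 7 carried a DRACH pentamer, and it was GGACT in 4 of them.

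Most sites outside genes had the m6A motif. A DRACH pentamer stood at 951 of 986 (96.5%, 95.1 to 97.4%), against 42253 of 45435 sites in genes (93.0%, 92.8 to 93.2%). The difference was 3.45 percentage points (Newcombe 95% interval 2.09 to 4.47). Against the 738 sites that lay in introns only, the difference was 0.922 points (-0.930 to 2.92), an interval that holds 0. In the highest quartile of ranks the shares were 92.4% (157 of 170) outside genes and 93.6% in genes, a difference of -1.27 points (-6.29 to 1.89), so the higher share outside genes was not seen there. The sequence around the A is an input of the classifier, and so the share of DRACH is partly built in, and the transcript region is another input. GGACT was the most frequent pentamer, at 290 sites outside genes (29.4%) against 21.3% in genes. GAACT came next with 201 sites (20.4%) against 14.2%. GGACC was less frequent outside genes (51 sites, 5.17%) than in genes (7.60%). Only 35 sites had no DRACH, of which 12 had GGACG and 12 had GTACT. Of these 35 sites, 13 were in the highest quartile of ranks. The only 2 members on the mitochondrial chromosome both lacked DRACH, with 1 at position 5324 between mt-Tw and mt-Co1, and 1 at position 13793 after mt-Nd5.

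Within 10 kb, sites outside genes lay more often behind a gene than in front of one. The nearest gene end upstream on the same strand was within 10 kb for 507 of 986 sites (51.4%, 48.3 to 54.5%), and the nearest gene start downstream was within 10 kb for 281 (28.5%, 25.8 to 31.4%). 133 sites met both conditions and 331 (33.6%) met neither. Within 1 kb the counts were 219 for a gene end and 93 for a gene start. The median distance to the gene end was 8361 bases over all sites with such a gene, and 1241 bases (quartiles 338 and 2717) among those within 10 kb. At the 10 kb limit, the last site inside was 9699 bases behind Trim11, at percentile 32.0 of the ranks explained below, and the first site outside was 10022 bases behind the same gene, at percentile 59.8. 1 site, on chromosome 15, had no gene end upstream.

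**Figure D1:**
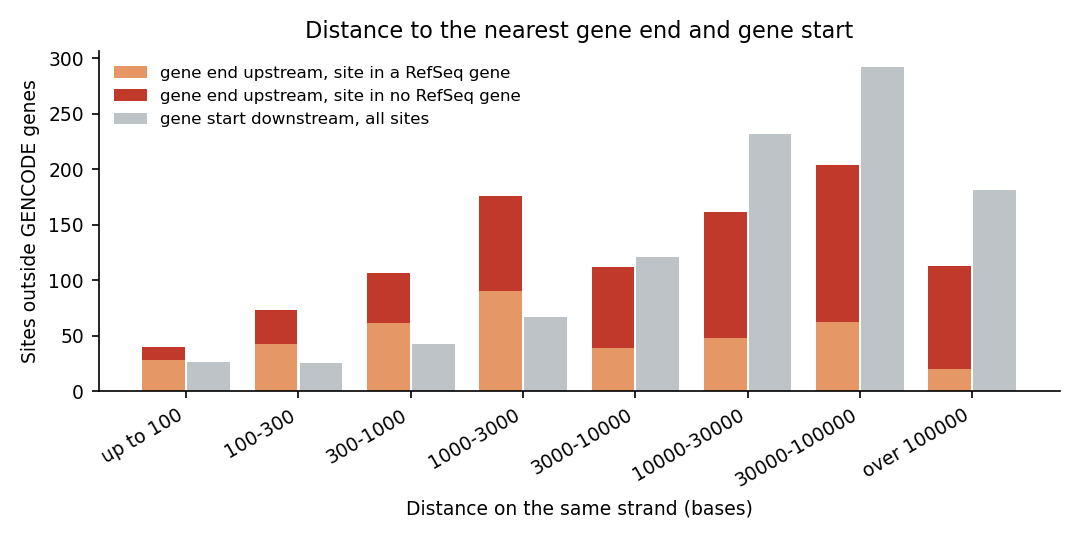
Number of sites outside GENCODE genes (vertical axis) by distance in bases on the same strand (horizontal axis, unequal bins) to the nearest gene end upstream, split by whether RefSeq has a gene at the site, and to the nearest gene start downstream in grey. Gene ends outnumber gene starts in every bin up to 3000 bases, and gene starts outnumber gene ends in every bin beyond.

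The genes in front of these sites often held predicted sites themselves. Of the 507 sites within 10 kb of a gene end, 362 (71.4%) followed a protein-coding gene, and 386 (76.1%, 72.2 to 79.6%) followed a gene with at least 1 site of the list inside it. Among the 479 sites farther away, 164 (34.2%, 30.1 to 38.6%) had such a gene upstream. The 507 sites followed 206 genes, 143 of them protein-coding. Counted by gene, 137 of the 206 held a site of the list. Of the 143 protein-coding ones 112 did, against 8532 of all 21951 (38.9%). At least 5 sites lay behind 27 of the 206 genes. Kcng2, a modulatory subunit of voltage-gated potassium channels, had the most, with 22 sites between 570 and 8800 bases behind its end, and 20 sites inside the gene. Nt5c1a, a cytosolic 5′-nucleotidase that forms adenosine from AMP, had 16 sites behind its end and only 2 inside.

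A second annotation placed many of these sites in transcripts. RefSeq on the same build had a gene body on the same strand at 390 of 986 sites (39.6%, 36.5 to 42.6%) and an exon at 342 (34.7%, 31.8 to 37.7%). For 197 sites the exon belonged to the gene upstream under the same symbol, and for 145 it belonged to another gene. A further 48 lay in RefSeq introns. For the remaining 596 sites (60.4%) neither annotation had a gene on that strand. The share with the exon of the upstream gene was 38.1% within 10 kb of the gene end and 0.835% beyond. Of the 390 sites in RefSeq genes, 211 were in protein-coding genes and 144 in lncRNA genes. DRACH stood at 95.6% of sites in RefSeq exons and at 97.1% of sites in no RefSeq gene.

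The gene ends in front of these sites often lacked a polyadenylation hexamer. AATAAA or ATTAAA was searched on the strand of the gene in the last 50 bases of each GENCODE gene body. It was present in 71 of the 143 protein-coding genes with a site within 10 kb behind them (49.7%, 41.6 to 57.7%). Among the other protein-coding genes with a site of the list inside them, 6636 of 8420 had it (78.8%, 77.9 to 79.7%), a difference of -29.2 points (Newcombe interval -37.3 to -21.0). Over all 21951 protein-coding genes the share was 71.9%. Against all other protein-coding genes, with or without a site, the difference was -22.4 points (-30.5 to -14.3). For 61 of the 143 genes the site lay in a RefSeq exon of the same gene. Here 21 had the hexamer at the GENCODE end (34.4%, 23.7 to 47.0%) and 45 at the RefSeq end (73.8%, 61.6 to 83.2%). In 30 genes it stood at the RefSeq end only, in 6 at the GENCODE end only, in 15 at both and in 10 at neither. Among the other 82 of the 143 genes, 50 had it at the GENCODE end (61.0%, 50.2 to 70.8%), so the lack was most marked in the 61. The 61 were defined by a RefSeq exon that reaches beyond the GENCODE end. Genes with such an exon and no site behind them were not compared, so the part of this choice in the contrast was not tested. Over all 83 genes whose RefSeq exon held such a site, noncoding genes included, the RefSeq end lay a median of 1852 bases beyond the GENCODE end. A hexamer is a match of letters and was not shown here to be used.

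**Figure D2:**
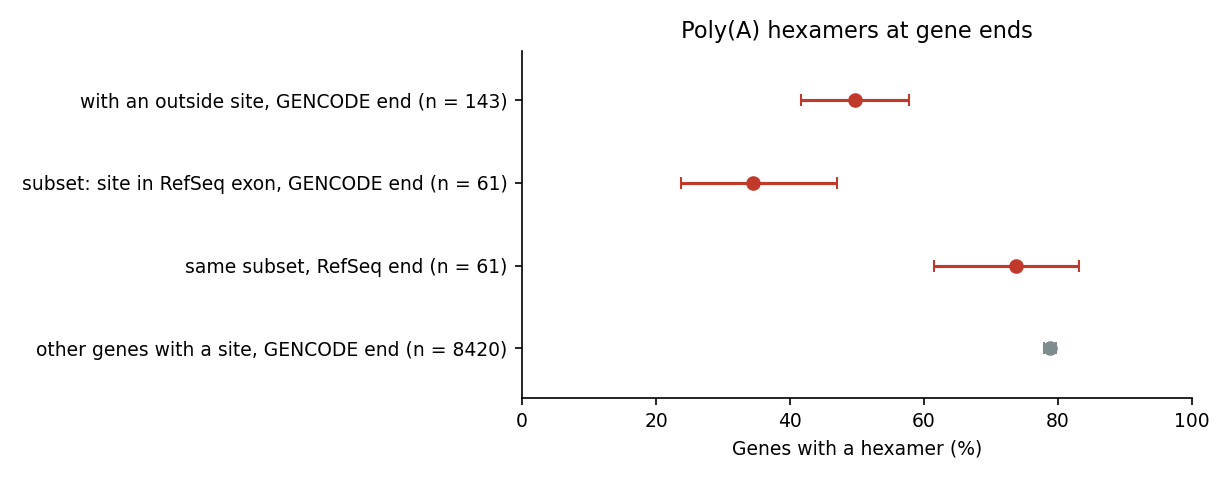
Share of protein-coding genes (horizontal axis, %) with AATAAA or ATTAAA in the last 50 bases, with Wilson 95% intervals, for genes followed by a site outside genes (red) and for the other genes with a site of the list (grey). The 61 genes whose RefSeq exon holds the site stand at 34.4% at the GENCODE end and at 73.8% at the RefSeq end.

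The sites formed clusters. Joining sites on 1 strand with gaps of at most 1 kb gave 474 clusters, of which 266 held 1 site and 208 held 2 or more, with 720 sites in the latter. Sites in genes were not joined in this way, so clustering is not shown to be particular to sites outside genes. 41 clusters had at least 5 sites and held 295 sites together. Among clusters of 2 or more the median span was 261 bases. The 12 largest held 131 sites, 127 of them DRACH. In 6 of the 12 the first site was within 10 kb of a gene end. All sites lay opposite a gene in 6, some in 1 and none in 5. 5 of the 12 had sites in a RefSeq exon.

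Rank means here the percentile of the score column (column 5 in the plots) within the 1 µg list, where 100 is the highest. The scale of that column is not stated, and it was used for order alone. The largest cluster lay behind Nt5c1a, at chr4:123217024-123220316 on the plus strand, with 16 sites from 749 to 4041 bases past the GENCODE end. All 16 were in a RefSeq exon of Nt5c1a, whose RefSeq end is 9064 bases farther on than the GENCODE end and has the hexamer that the GENCODE end lacks. Ranks ran from 6.08 to 89.4 with a median of 63.7, and 3 sites were also in the 300 ng list. The cluster behind Adprhl1, an ADP-ribosylhydrolase-like gene of heart, was at chr8:13218990-13221570 on the minus strand, with 10 sites from 93 to 2673 bases past the end. All 10 were in a RefSeq exon of Adprhl1, and none was in a lower-input list. Their median rank, 32.6, was lower than that of the Nt5c1a sites.

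The second largest cluster, with 15 sites, lay behind Kcng2 at chr18:80291655-80293976 on the minus strand, and RefSeq had no gene there on that strand. Its first site was 570 bases past the gene end and its last 2891. All 15 were DRACH, and 6 lay opposite exons of Pqlc1. Ranks ran from 34.9 to 99.2 with a median of 77.4. Of these sites, 6 were in the 300 ng list, 4 in the 100 ng list and 1, at position 80292519 with rank 99.2, in the 50 ng list as well. This made it 1 of 2 large clusters with a site in all 4 heart lists. The cluster behind F830016B08Rik at chr18:60305681-60309576 on the plus strand had 12 sites with a median rank of 80.7, 10 of which were at bases masked as repeats. All 12 lay opposite AC132320.1, none of them opposite an exon. 1 was in the 300 ng list and 1 in the 100 ng list. Another 10 sites, at chr18:11016298-11018041 on the plus strand, began 84788 bases past the pseudogene AC140316.1 and ended 34023 bases before Gata6, a transcription factor of heart development. They lay opposite 1010001N08Rik, and 1 was at 300 ng. Chromosome 18 held 83 of the 986 sites (8.42%, 6.84 to 10.3%), against 3.46% of the whole list. Of these 83, 22 lay within 10 kb behind Kcng2, 16 within 10 kb behind F830016B08Rik and 12 opposite 1010001N08Rik. The share therefore rests largely on these loci and does not describe the chromosome as a whole.

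**Figure D3:**
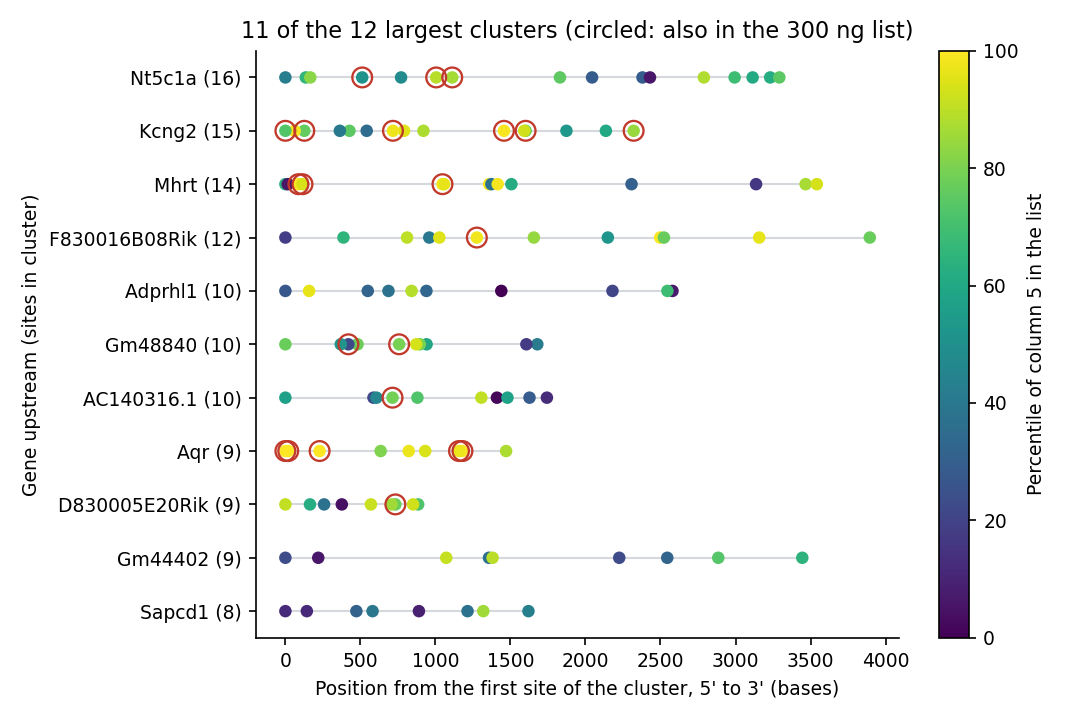
Position in bases, 5′ to 3′ from the first site (horizontal axis), of each site in 11 of the 12 largest clusters, named by the gene upstream with the number of sites. Colour gives the percentile of the score column within the list, and red circles mark the sites that are also in the 300 ng list: 6 in the cluster behind Kcng2, 5 in the one that names Aqr and starts before Actc1, and none in 3 clusters.

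Clusters lay at loci of contractile and calcium handling proteins, on the strand opposite to the gene. At the myosin heavy chain locus, 14 sites at chr14:54974458-54978000 on the plus strand began 109 bases after Mhrt, a lncRNA of this locus, and ran past the small gene Gm17428, opposite Myh7, the slow myosin heavy chain. Their median rank was 90.3, and the top site had 99.6. 3 of the 14 were at 300 ng. RefSeq had the lncRNA Gm31251 at 10 of the 14 sites, with 6 in its exons, whereas the GENCODE gene of that name starts farther downstream. Myh7 itself had no site of the list on its own strand. Opposite Trdn, which encodes triadin of the sarcoplasmic reticulum, lay 21 sites, 1 of them opposite an exon. These sites followed D830005E20Rik, an antisense gene with 11 sites of its own, from 489 to 22143 bases behind its end. The largest cluster there had 9 sites at chr10:33201364-33202249 with a median rank of 77.3, 8 of them at repeat-masked bases. 1 of the 9 was at 300 ng, and Trdn had 2 sites on its own strand.

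The cluster with the highest ranks lay upstream of Actc1, the cardiac α-actin gene, on the same strand. It had 9 sites at chr2:114057113-114058584 on the minus strand, all DRACH, and ended 3565 bases before the annotated start of Actc1. The nearest gene end upstream was that of Aqr, 42586 bases away. Ranks ran from 80.6 to 99.9 with a median of 97.2. 5 sites were at 300 ng, 3 at 100 ng and 1, at position 114058565, at 50 ng too. 3 sites were in exons of the RefSeq gene Gm46757, and all 9 lay opposite the noncoding genes A530058N18Rik and C130080G10Rik. Actc1 itself had no site of the list.

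The other 3 large clusters had less around them. 10 sites at chr9:45016081-45017760 on the minus strand lay 33664 bases past Gm48840 and 6454 bases before Cd3e, with a median rank of 68.0, 2 sites at 300 ng and 6 at repeat-masked bases. 9 sites at chr6:51329716-51333161 on the plus strand lay 362211 bases past the pseudogene Gm44402, with a median rank of 36.6 and none at 300 ng. 8 sites at chr17:34997646-34999266 on the minus strand named Sapcd1 as the gene upstream, but all 8 were in exons of the RefSeq gene D17H6S56E-5. They had a median rank of 34.1, and none was at 300 ng.

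Smaller clusters at the 3′ ends of known genes were picked out after their values were seen. Nrp1, a receptor for semaphorins and VEGF, had 7 sites from 89 to 1832 bases past its end, all in a RefSeq exon of Nrp1, with a median rank of 79.8. Zfp146, a zinc finger gene, had 6 sites from 169 to 513 bases, with 2 at 300 ng. Klf15, a transcription factor of heart metabolism, had 6 sites from 1793 to 2390 bases with ranks from 3.46 to 53.1 and none at 300 ng. C1qtnf1, which encodes a secreted C1q and TNF-related protein, had 7 sites from 684 to 1699 bases, none at 300 ng. Lrrc10, a heart leucine-rich repeat gene, had 5 sites from 601 to 1705 bases, 2 of them at 300 ng, and RefSeq had no gene there on that strand.

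A small number of genes of heart function had sites behind them. 4 lists of 87 genes in all (cardiac transcription factors, sarcomere and Z-disc, calcium handling, sodium and potassium channels) were looked up. 78 of the 87 held sites of the list, 929 together. 5 of the 87 were the nearest gene within 10 kb upstream of a site outside genes, with 9 such sites, against 143 of all 21951 protein-coding genes (0.651%) and 112 of the 8532 that held a site of the list (1.31%). The 5 were 2 of 20 transcription factors, 3 of 28 sarcomere genes, 0 of 17 calcium handling genes and 0 of 22 channels. The lists name genes known from heart, so their share is a description only. Myocd, which encodes the coactivator myocardin, had 2, and both were in the 300 ng list. They stood 476 and 294 bases past the GENCODE end, in a RefSeq exon of Myocd, with ranks of 77.6 and 91.9. The hexamer was present at the RefSeq end and absent at the GENCODE end. The second of these sites shows GGACG, which is not DRACH.
Myocd, chr11:65176075-65176095 (-): gggagtatGAACTttgttctg
Myocd, chr11:65176257-65176277 (-): atgacttaGGACGccaactca
Myl7, the atrial myosin light chain, had no site inside and 3 behind it, at 93, 268 and 501 bases. Actn2, which encodes α-actinin of the Z-disc, had 2 at 37 and 205 bases. The cardiac homeobox factor Nkx2-5 had 1 at 425 bases and Nebl, which encodes nebulette, 1 at 159 bases. None of the sites behind Myl7, Actn2, Nkx2-5 and Nebl was in a lower-input list. On the opposite strand, 8 of the 87 genes had 68 sites, 21 of them opposite Trdn and 15 opposite Myh7. Among all protein-coding genes, 112 (0.510%) lay opposite a site outside genes. Among the 8532 that held a site of the list, 76 did (0.891%). As for the tissue, 4 of 6 cardiomyocyte markers held sites of the list in their gene bodies, as did 7 of 8 endothelial, 8 of 8 fibroblast, 5 of 6 smooth muscle and pericyte, 2 of 5 blood and immune, 2 of 4 adipocyte and 0 of 5 neural and glial markers. Over all protein-coding genes the share was 38.9%. None of these markers had a site behind its end, and a gene without a site may still be expressed.

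A gene on the opposite strand was present at 365 of the 986 sites (37.0%, 34.1 to 40.1%), and 136 genes were concerned. The site lay opposite an exon in 126 of the 365. In only 9 of the 365 (2.47%) was another site of the list within 50 bases on the opposite strand. DRACH was found at 97.3% of the sites opposite a gene and at 96.0% of the 621 with no gene on either strand, a difference of 1.29 points (-1.29 to 3.52). The shares at 300 ng were 7.40% and 6.92%, a difference of 0.473 points (-2.74 to 4.07). RefSeq had a gene on the site's strand for 26.0% of those opposite a gene and for 47.5% of the others, a difference of -21.5 points (-27.3 to -15.3).

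A small set stood at transcript starts. 22 sites were within 50 bases before an annotated gene start, and 10 of them were within 2 bases. The start was that of a protein-coding gene in 17 of the 22. Among those 10 were sites at Eno3, the muscle enolase, Csrp3, the muscle LIM protein, Trim63, a muscle ubiquitin ligase, Epas1, a hypoxia-inducible factor, and Slc16a1, a lactate transporter, which were picked out after their values were seen. Their ranks were 99.1 at Eno3, 99.3 at Csrp3, 99.7 at Trim63, 83.3 at Epas1 and 99.8 at Slc16a1. Others were low, with 2.67 at the RNA helicase gene Ddx5 and 33.7 at Tmod3, a tropomodulin, and the median over the 22 sites was 40.3. DRACH was at 20 of the 22 sites, and 3 were at 300 ng. The share at 300 ng was 6.69 points above that of the other 964 sites, with an interval of -2.38 to 26.4 that holds 0. For mouse embryonic stem cells, the paper describes signal at transcript starts that was unchanged in the Mettl3 knockout, and proposes m6Am as its likely source. Whether the base at these heart starts is m6A or m6Am was not tested.
Eno3, chr11:70657191-70657211 (+): gagggggtGAACTgacactgt
Csrp3, chr7:48848024-48848044 (-): gagtccccTTACTcagttgag
Trim63, chr4:134315108-134315128 (+): tcagaccaAGACAgaagtcgg
The Eno3 site was 1 base before the annotated start and inside the RefSeq exon of the gene, and its pentamer was DRACH. The Csrp3 site, also 1 base before the start, was not DRACH.

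Sites outside genes ranked lower than sites in genes. Their median rank was 35.7 (quartiles 15.8 and 63.9), against 50.3 (25.3 and 75.2) for sites in genes, 48.4 for sites in 3′ UTRs and 32.8 for sites in introns only. Their ranks still covered the whole list, from the lowest value to the highest, and 6 of the 61 sites that share the highest value were outside genes. 3 of these 6 belonged to the cluster before Actc1. Sites behind a gene end by at most 10 kb had a median rank of 38.4, and those farther away 33.4.

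A smaller share of sites outside genes than of sites in genes was found again at 300 ng. Of the 986, 70 were in the 300 ng list (7.10%, 5.66 to 8.87%), 18 in the 100 ng list and 5 in the 50 ng list. Of 45435 sites in genes, 8187 were in the 300 ng list (18.0%, 17.7 to 18.4%), a difference of -10.9 points (-12.4 to -9.11). Against sites in introns only, 7.18% of which were at 300 ng, the difference was -0.0822 points (-2.62 to 2.34). At 100 ng the shares were 1.83% outside genes and 2.32% in genes, a difference of -0.490 points (-1.17 to 0.560), and at 50 ng 0.507% and 0.511%, a difference of -0.0035 points (-0.302 to 0.674). Both intervals hold 0. Against sites in introns only, the share at 100 ng was 1.28 points higher (0.208 to 2.38). Presence at 300 ng rose with rank. In the lowest quartile of ranks 3 of 364 sites outside genes were at 300 ng, in the next 3 of 272, then 14 of 180 (7.78%) and, in the highest, 50 of 170 (29.4%, 23.1 to 36.7%). Sites in genes in the highest quartile were at 300 ng in 52.1% of cases. The difference there was -22.7 points (-29.1 to -15.4). The median rank in that quartile was 88.8 outside genes and 87.5 in genes. Against the 67 sites in introns in that quartile the difference was -16.9 points (-30.3 to -3.34). In the lower quartiles, from the lowest up, the differences from introns were -0.527, 0.627 and -2.53 points, and each interval holds 0. Sites in genes in those quartiles were at 300 ng in 2.10%, 4.84% and 12.6% of cases. RNA levels of the transcripts in heart were not analysed here, and their part in these differences was not tested.

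**Figure D4:**
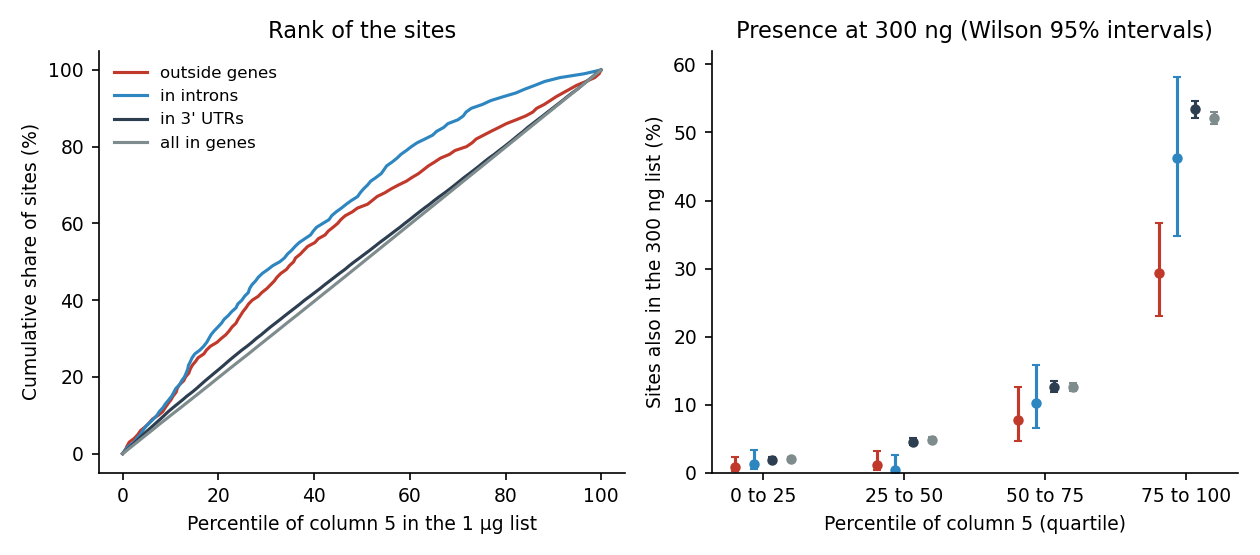
Left, cumulative share of sites (%) against the percentile of the score column in the 1 µg list, where the curve of the sites outside genes lies above that of sites in genes because their ranks are lower. Right, share of sites (%) also in the 300 ng list by quartile of that percentile, with Wilson 95% intervals: 29.4% outside genes (red), 46.3% in introns only (blue) and 52.1% over all sites in genes (grey) in the highest quartile, with 3′ UTRs in dark blue.

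The share of sites outside genes was lower in the 300 ng list than in the 1 µg list, where it was 2.12%. At 300 ng it was 0.961% (85 of 8845, interval 0.778 to 1.19%). The share was 1.71% (19 of 1112) at 100 ng and 2.82% (7 of 248, interval 1.37 to 5.71%) at 50 ng. The intervals at 100 ng and 50 ng both hold 2.12%, and the counts were lowest at the lowest input, so no trend with input is shown. Of the sites outside genes in the 300, 100 and 50 ng lists, 70 of 85, 18 of 19 and 5 of 7 were also in the 1 µg list. Sites of the 300 ng list as a whole were in the 1 µg list in 93.4% of cases, against 82.4% for those outside genes. The list of wild-type mouse embryonic stem cells held only 11 sites outside genes among 25456 (0.0432%, 0.0241 to 0.0774%). That list came from replicate libraries and each heart list from 1, and how the heart peaks were filtered is not given. According to the paper, peaks were assigned to a host gene, and their strength relative to that gene's peaks was an input of the classifier. Tissue, library design, annotation and processing therefore cannot be told apart here. 1 site outside genes was in both the heart and the stem cell list. It was at position 41582134 on chromosome 19, 19873 bases past Lcor, a nuclear receptor corepressor, inside an exon that RefSeq gives to Lcor, with rank 10.9.

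The 5 sites outside genes that were in all 4 heart lists stood at high ranks. They were the sites at positions 80292519 behind Kcng2 and 114058565 before Actc1, the site at the start of Eno3, and 2 others. Of these, 1 lay opposite Macc1 with rank 99.4 and far from any gene end, 239148 bases past Gm48681, and 1 lay 291 bases before the start of BC005537 with rank 99.3. Next to that of Eno3 above, 3 more sequences of these 5 sites are given, while that of the site behind Kcng2 is not shown.
before Actc1, chr2:114058555-114058575 (-): ggtagcagAAACTctgcgaag
opposite Macc1, chr12:119325213-119325233 (-): cgccggtaGGACTtgctgaag
before BC005537, chr13:24801356-24801376 (+): tctctcttGGACTatcttcct
All 3 were DRACH. Among the 18 sites at 100 ng, all 5 of these and 8 more were also at 300 ng. The remaining 5 were at 100 ng and not at 300 ng. They were 1 site behind Kcng2, 1 behind F830016B08Rik, 1 before Actc1, 1 behind Gm12250 and 1 141847 bases past Gm15684. The others at 100 ng included 1 site 161 bases before Kmt2d and 1 site 2 bases before Epas1. A lone site 48581 bases past Rprl3, without DRACH, shared the highest rank of the 18 with the site before Actc1.

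Repeats were more frequent at sites outside genes. The A called as m6A was at a base masked as a repeat in the genome file at 207 of 986 sites (21.0%, 18.6 to 23.6%). The share was 4.78% for sites in genes, 5.69% for sites in 3′ UTRs and 14.9% for sites in introns only. The difference from introns was 6.09 points (2.42 to 9.66). In clusters of 5 or more sites outside genes the share was 22.7% (18.3 to 27.8%). For 15 of the 986 sites the 21 bases centred on the A were the same as at another site outside genes. How far repeats bear on the calls was not tested.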

How the data were processed

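The authors trimmed reads (Flexbar), mapped them to GRCm38 with STAR 2.7.3a, removed duplicates with UMI-tools 1.0.0, called peaks with PureCLIP and classified those at an A by m6Aboost. The scale of the score that the authors deposited per site is not stated, so only its ranks were used. How peaks of the single heart libraries were filtered is not given in the sources used here. Gene bodies came from GENCODE (release M21), an earlier release than the authors used, and from NCBI RefSeq on GRCm38.p6. The software was Python 3.11.15 (SciPy 1.17.1, pandas 2.3.3, NumPy 2.4.6, Matplotlib 3.10.9). Sites were shared between lists at the same position and strand. Functions were tested on simulated data. Genes named are those upstream of the 12 largest clusters and of sites at 100 or 50 ng, list members, and sites next to 10 kb. Others are marked in the text. Members and lists were chosen with earlier results of these data known. Shares have 95% Wilson and differences Newcombe intervals, and no p-value was computed. The RNA-seq and HEK293T files were not used here. Results for 1 locus, with 1 of the 12 clusters, are not reported here.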

Additional observations from a re-analysis of the deposited data

How the results depend on the processing

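The number of sites outside genes depended on which genes were drawn: it was 2050 with protein-coding genes only, 5360 with transcripts of support level up to 3 and level up to 2, 621 with no gene on either strand and 596 with no GENCODE or RefSeq gene. The share within 10 kb of a gene end was 45.4% at 5 kb, 60.3% at 20 kb, 38.5% with ends of protein-coding genes only and 41.4% without the sites in RefSeq genes. The share of DRACH was 90.2% as RRACH (R is A or G) and 94.3% among sites at or above the median rank of the list. The median rank was 41.5 with 1 site per cluster. With introns in place of all sites in genes, the differences in DRACH and in presence at 300 ng were 0.922 and -0.0822 points, and both intervals held 0. Within the highest quartile of ranks the difference in DRACH was -1.27 points, with an interval that holds 0. The cause was not tested. The comparisons with RefSeq genes and with introns, 1 site per cluster in the differences, and the counts of hexamers, of sites at gene starts and within the highest quartile were chosen after seeing the data. The other 24 values, with matching within 2 bases and other cluster gaps among them, stayed within the interval of the main value or within 1.5 times a main count, or kept the sign of the difference and its side of 0. No paired analysis was possible because each heart input has 1 library. The paper reports a range of truncation events across the heart libraries and a lower sensitivity at lower input. Depth at each site is unknown, and both limit what absence from a lower-input list can show.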
